A study of Homo sapiens with 16 samples.

Results

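The response of wild-type (WT) THP-1 cells to interferon alpha (IFNα) was examined at the level of chromatin, by ChIP-seq for H3K27ac, an acetylation of histone H3 found at active promoters and enhancers. THP-1 is a human monocytic leukemia line. The effect was chosen by its labels as the contrast of 2 libraries from WT cells given IFNα at 1000 U/ml for 6 h with 2 libraries from untreated WT cells, which are 4 of the 8 H3K27ac libraries and 4 of the 16 samples of the series. All cells were kept in RPMI with FBS and had received Cas9. The genotype label of the WT cells reads Cas9 only, while the treatment text names a control guide RNA, so whether these cells carried a guide cannot be told from the labels. The other 4 H3K27ac libraries came from USP18KO cells, edited in USP18 and expanded from sorted single cells, either untreated or given the same IFNα for the same time, and they entered the fit and a few comparisons below. The 2 libraries of a group are biological replicates of 1 cell line by the series design, so p-values describe the spread between cultures of that line. Input libraries were not used here, and a change in the share of responding cells and a change in acetylation per cell cannot be told apart in bulk chromatin.

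Tags were counted by the authors in windows of 1000 bp at 151654 merged ATAC-seq peaks, called regions here, of which 123276 held enough tags to be tested. The 4 WT libraries held 9046141 to 10291674.5 tags in regions, or 36.1% to 37.3% of all tags in each library. Values are given as CPM, tags scaled to a library of 1000000 with sizes adjusted by edgeR's TMM factors, for replicates 1 and 2 in that order. Fold changes are on the log2 scale ± SE, with n = 2 libraries per group, and adjusted p-values come from the quasi-likelihood F-test of edgeR, adjusted by Benjamini-Hochberg over all tested regions. A region was called when it changed by over 2-fold at an adjusted p under 0.05. At promoters of the gene lists, changes below 2-fold at that adjusted p were also called and are given apart. A list promoter described as not called did not pass at any fold. A region was proximal when the transcription start site (TSS) named for it in the deposited annotation was at most 3000 bp away, any other region was distal, and the promoter of a gene was the tested region closest to its TSS among those that carry its name. A distal region carries the name of the gene with the nearest TSS, which need not be the gene it acts on.

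IFNα binds the receptor chains IFNAR1 and IFNAR2, which activate the kinases JAK1 and TYK2. These phosphorylate STAT proteins, which join IRF9 to form ISGF3, and ISGF3 binds the interferon-stimulated response element (ISRE) at interferon-stimulated genes (ISGs). USP18 and SOCS1 are themselves induced and restrain the receptor. The gamma-activated site (GAS) is a different element, better known from interferon gamma.

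The core of the ISRE, the letters GAAA followed by any 2 bases and a second GAAA, was searched on both strands in the central 200 bp of each region. The ISRE copies at promoters that rose are shown first, since its share among raised regions, given below, was far from that among all tested regions. Each line gives 30 bases read 5′ to 3′ on the strand of the match, with the match in capitals.
IFI27, chr14:94110641-94110650, plus strand: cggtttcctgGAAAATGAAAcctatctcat
IFI44L, chr1:78620375-78620384, plus strand: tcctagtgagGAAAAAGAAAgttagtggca
EPSTI1, chr13:42992282-42992291, minus strand: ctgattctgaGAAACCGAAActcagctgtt
ISG15, chr1:1013390-1013399, plus strand: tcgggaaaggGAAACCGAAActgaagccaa
OAS3, chr12:112938462-112938471, plus strand: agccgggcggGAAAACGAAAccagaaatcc
RSAD2, chr2:6877632-6877641, minus strand: ttccacatgtGAAACTGAAAgttgaaacag
USP18, chr22:18150079-18150088, plus strand: ccattcagtgGAAAACGAAAgctgggcggg

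The next copies lie in distal regions that rose, named by the nearest TSS, and show this core over 3000 bp from that TSS. The SIGLEC1 copy lies in a region within 3000 bp of another start of SIGLEC1 in GENCODE.
SPATS2L, chr2:200383938-200383947, plus strand: tcagagaaacGAAAGTGAAActttattact
NEURL3, chr2:96486217-96486226, plus strand: aggcttctagGAAAGCGAAActtagccgca
SIGLEC1, chr20:3711498-3711507, minus strand: ttggtgtcagGAAACAGAAActgaatccta
CXCL10, chr4:76028397-76028406, minus strand: aatagcgactGAAACGGAAActaaagcggg
IRF8, chr16:85863020-85863029, plus strand: ctgggaaaatGAAACTGAAAtcttacttcc

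The last copies lie at promoters of interferon genes that did not pass the test, and show that the letters of the core were also present where no change was called.
GBP1, chr1:89065326-89065335, plus strand: agagtaatatGAAACTGAAAgtacttcgtt
GBP3, chr1:89022855-89022864, plus strand: agagcctaatGAAACTGAAAgtacttcttt
GBP4, chr1:89198937-89198946, plus strand: tgtgagaaccGAAATTGAAAggacatgcac
NLRC5, chr16:56989553-56989562, minus strand: cgctctgcacGAAACTGAAAgtagaagccg
PSMB10, chr16:67936862-67936871, minus strand: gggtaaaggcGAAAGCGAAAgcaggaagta

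IFNα raised H3K27ac at a small, defined set of regions. In all, 424 regions rose by over 2-fold, or 0.344% of those tested, and 47 fell, or 0.0381%. With no fold threshold 805 rose, or 0.653%. The raised regions had a median level of 2.77 CPM without and 7.90 CPM with IFNα, and a median fold change of 2.80. Of these, 85 rose by over 4-fold and 13 by over 8-fold. The untreated level was under 1 CPM in 74 of the raised regions (17.5%) and over 10 CPM in 36. All 424 had both treated libraries above both untreated ones, an order that 18.3% of all tested regions showed. The median change over all tested regions was -0.01 on the log2 scale.

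The rise was found in proximal and in distal regions. Of the raised regions, 132 were proximal, or 0.458% of the tested proximal regions, and 292 were distal, or 0.309% of the tested distal regions. A distal region can lie near a start that the deposited annotation does not use, and 34 of the 292 (11.6%), against 12.03% of tested distal regions, had a protein-coding start of GENCODE within 3000 bp. By distance from the nearest TSS, the share raised was 0.449% within 500 bp, 0.473% from 500 to 3000 bp, 0.439% from 3 to 10 kb, 0.236% from 10 to 50 kb and 0.342% beyond 50 kb. The raised regions fell into 310 loci when those less than 50 kb apart were joined, and 230 of these loci held a single raised region. Of the 322 genes that gave raised regions their names, 92 had a raised proximal region and 230 had distal ones only, and 11 of the 292 raised distal regions (3.77%) lay within 100 kb of a raised proximal region, against 1.07% of all tested distal regions.

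The response was then read at 164 genes of 16 interferon lists, of which 154 had a tested promoter. Here 48 rose by over 2-fold, a share set against 0.366% for the promoters of all 16104 genes tested in this way, and another 26 rose by less than 2-fold, so that 74 rose in all. The background for a rise of any size was 0.727%. No interferon promoter fell at any fold by edgeR's adjusted p, as 0.0621% of all promoters did. None fell at an unadjusted p under 0.05 by the same test either, as 5478 of all 123276 tested regions did. The median log2 fold change was 0.53 over the 154 and -0.01 over all genes. The 48 had a median untreated level of 5.24 CPM, from 0.343 to 40.9, and a median log2 fold change of 1.58, and 16 rose by over 4-fold. When each WT library was left out in turn, 9 of the 48 lost the call at least once (USP18, UBE2L6, OAS1, RSAD2, SAMD9, DDX58, TRIM34, APOBEC3F and LGALS3BP), as did 16 of the 26 with smaller rises.

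**Figure D1:**
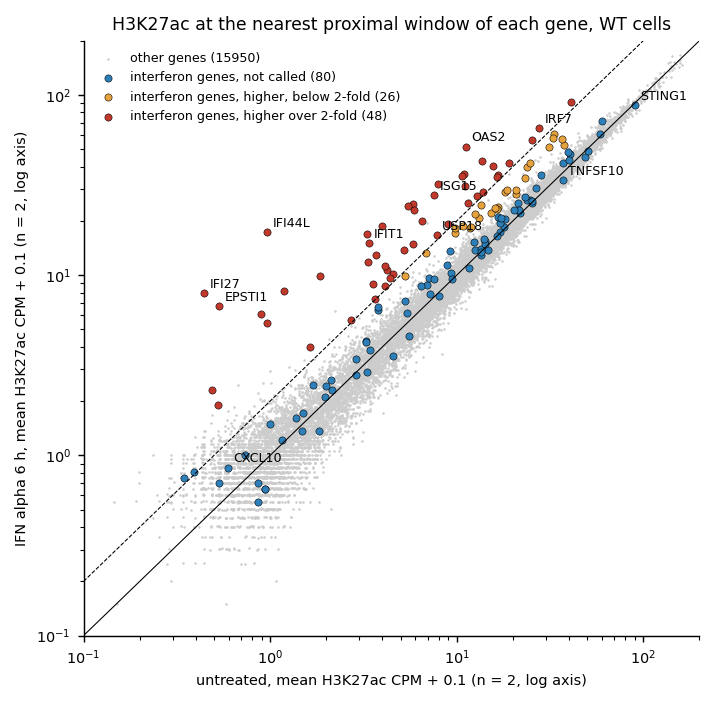
Mean H3K27ac of 2 libraries at promoters in IFN treated (y axis) against untreated WT cells (x axis), in CPM plus 0.1 on log axes, with 1 point for each gene and colours for interferon genes by outcome. Red points are the 48 interferon promoters that rose by over 2-fold, above or near the dashed line at 2-fold, and orange points the 26 that rose by less. Blue points are the 80 not called, around the solid line of no change. Their median log2 fold change was 0.17, and 2 of them had point estimates over 2-fold.

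Of the members of the receptor and of ISGF3, the complex that IFNα activates, 2 of the 7 promoters tested rose, among them IRF9, and 5 did not pass the test. IRF9 (chr14:24160693-24161693), the DNA-binding partner in ISGF3, gave 14.4 and 12.6 CPM untreated and 43.0 and 42.6 CPM with IFNα. Both treated libraries were about alike and far above both untreated ones, a log2 fold change of 1.67 ± 0.12 (edgeR adjusted p = 5.2e-19). STAT2, a member of ISGF3, gave 17.1 and 16.1 CPM untreated and 21.7 and 19.9 CPM with IFNα. Its treated libraries were also the higher ones, but the log2 fold change of 0.33 ± 0.13 did not pass (edgeR adjusted p = 0.38). The promoters of IFNAR1, IFNAR2, TYK2 and JAK1 had log2 fold changes of 0.01, 0.13, -0.01 and -0.26, and did not pass either.

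Among 10 feedback genes, USP18 and SOCS1 rose, and the list had a median log2 fold change of 0.14. USP18 (chr22:18149602-18150602), the protease that removes ISG15 and blocks the receptor, gave 7.85 and 7.62 CPM untreated and 18.0 and 15.0 CPM with IFNα. The groups were well apart, with a log2 fold change of 1.09 ± 0.16 (edgeR adjusted p = 1.5e-06), which was 0.95 without IFN treated replicate 1 (edgeR adjusted p = 0.0038) and so below 2-fold there. SOCS1, an inhibitor of JAK kinases, started higher and rose less, from 24.3 and 21.8 CPM to 36.5 and 32.8 CPM, a log2 fold change of 0.59 ± 0.11 (edgeR adjusted p = 0.00051), which no longer passed without IFN treated replicate 1 or untreated replicate 2 (0.51 in both). A second SOCS1 region 1256 bp upstream of the TSS rose by 1.22 on the log2 scale, and lost the call without IFN treated replicate 1 (1.32) or 2 (1.12) or untreated replicate 2 (0.89). Of 8 IRF genes, IRF7 alone rose at its promoter. IRF7 (chr11:615245-616245), the factor that amplifies type I interferon, gave 27.9 and 27.1 CPM untreated and 65.2 and 64.9 CPM with IFNα (1.24 ± 0.10, edgeR adjusted p = 3.2e-17). IRF1 and IRF8 had log2 fold changes of 0.23 and -0.01 at their promoters and did not pass.

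All 5 tested genes of the ISG15 pathway, in which the ubiquitin-like ISG15 is joined to proteins by UBA7, UBE2L6 and HERC ligases, rose, 4 of them by over 2-fold, with a list median of 1.34. ISG15 (chr1:1012907-1013907) gave 6.40 and 8.53 CPM untreated and 26.2 and 29.2 CPM with IFNα, with no overlap (1.88 ± 0.15, edgeR adjusted p = 8.8e-18). HERC6 rose by 1.97 ± 0.16 on the log2 scale, from 5.06 and 6.53 CPM to 24.1 and 21.7 CPM. The treated libraries of HERC6 lay closer together than those of UBE2L6. UBE2L6, the E2 enzyme, gave 1.34 and 1.72 CPM untreated and 5.05 and 2.77 CPM with IFNα in the window at its TSS. Its rise of 1.34 ± 0.32 (edgeR adjusted p = 0.014) lost the call without IFN treated replicate 1 (0.84, edgeR adjusted p = 0.63) and without untreated replicate 1 (1.18) or 2 (1.54). A second UBE2L6 window, 1379 bp into the gene, had more tags and agreeing libraries, at 2.38 and 2.00 CPM untreated and 13.2 and 12.8 CPM with IFNα (2.57 ± 0.22). HERC5 and UBA7 rose by 1.17 and 0.55 on the log2 scale, and UBA7 lost its call without any one of the 4 WT libraries (0.47 to 0.64).

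The effectors that bind viral RNA were the list with the most members raised by over 2-fold, 10 of 13, with a median log2 fold change of 1.52. They include the OAS enzymes, which sense double-stranded RNA, and the IFIT proteins, which bind foreign 5′ ends. OAS3 (chr12:112937923-112938923) was near silent untreated, at 0.620 and 1.54 CPM, and gave 7.33 and 8.72 CPM with IFNα (2.84 ± 0.29, edgeR adjusted p = 2.5e-12). OAS2 (chr12:112977921-112978921) was already at 10.95 and 11.16 CPM and reached 51.9 and 51.1 CPM (2.22 ± 0.12, edgeR adjusted p = 7.6e-27). IFIT5 (chr10:89414235-89415235) went from 1.34 and 2.18 CPM to 9.41 and 10.3 CPM (2.45 ± 0.24). In all 3 genes the treated libraries stood several-fold over the untreated ones. ADAR, which deaminates double-stranded RNA, had a strong promoter before treatment, at 42.0 and 39.8 CPM, and still rose to 92.2 and 89.5 CPM (1.15 ± 0.09, edgeR adjusted p = 7.5e-17). IFIT1, IFIT3, OASL, EIF2AK2, IFIT2 and OAS1 rose by 2.20, 1.84, 1.84, 1.52, 1.44 and 1.12 on the log2 scale, with OAS1 at 0.93 without untreated replicate 2. ISG20 (0.81) and ZC3HAV1 (0.13) did not pass.

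Of 13 effectors of membranes and virus entry, 8 rose by over 2-fold and 3 more by less, with a median of 1.38. MX2 (chr21:41361477-41362477), a dynamin-like GTPase, gave 3.41 and 4.36 CPM untreated and 19.2 and 18.2 CPM with IFNα (2.25 ± 0.18). RSAD2, which encodes viperin, was near silent at 0.413 and 0.363 CPM and gave 2.58 and 1.85 CPM with IFNα (2.48 ± 0.50, edgeR adjusted p = 0.00086). The RSAD2 libraries did not overlap, but the values are low, and the adjusted p by edgeR was 0.096 without IFN treated replicate 1 and 0.083 without untreated replicate 2. MX1, the paralog of MX2, had a window at one of its starts (chr21:41425688-41426688) at 1.03 and 0.545 CPM untreated and 7.53 and 4.41 CPM with IFNα (2.93 ± 0.37, edgeR adjusted p = 7.2e-09), and a separate window at an upstream start (chr21:41419822-41420822) that was higher throughout and rose by 1.01 ± 0.14, from 13.0 and 9.89 CPM to 23.9 and 22.1 CPM. The membrane proteins IFITM3 and IFITM1, which block virus fusion, rose by 2.15 and 2.04, LY6E by 1.48, CMPK2 by 1.38 and SAMD9 by 1.14 (0.98 without IFN treated replicate 1). Smaller rises were called at SAMD9L (0.81), BST2, which tethers virus particles (0.75), and IFITM2 (0.63). None of these 3 passed without untreated replicate 2 (0.79, 0.55 and 0.68), and IFITM2 also did not pass without IFN treated replicate 1 (0.52) or untreated replicate 1 (0.58). The nucleases TREX1 (0.29) and SAMHD1 (0.21) did not pass.

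The largest fold changes of any interferon promoters were found among small and less well understood ISGs, of which 14 of 17 tested rose, 9 of them by over 2-fold. IFI27 (chr14:94110180-94111180) gave 0.413 and 0.272 CPM untreated and 7.63 and 8.10 CPM with IFNα, a log2 fold change of 4.49 ± 0.38 (edgeR adjusted p = 2e-16). IFI44L (chr1:78619852-78620852) gave 0.723 and 0.998 CPM untreated and 18.0 and 16.3 CPM with IFNα, 4.29 ± 0.26 (edgeR adjusted p = 2.5e-24). EPSTI1 (chr13:42991783-42992783) went from 0.413 and 0.454 CPM to 6.14 and 7.08 CPM, 3.89 ± 0.36 (edgeR adjusted p = 2.4e-14). These 3 promoters carried almost no acetylation before treatment and were the interferon promoters that rose by over 8-fold. IFI44 and IFI6 followed at 2.60 and 2.37, then HELZ2 (1.35), XAF1 (1.15), LAP3 (1.14) and PNPT1 (1.12). Of the 5 smaller rises, those of IFI35, RTP4, PLSCR1 and NMI lost the call without at least 1 WT library (0.39 to 0.68). RTP4 lost it without any one of the 4 WT libraries (0.45 to 0.63). SCO2, NUB1 and IFI27L2 had log2 fold changes of -0.03, 0.14 and 0.13 and did not pass.

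**Figure D2:**
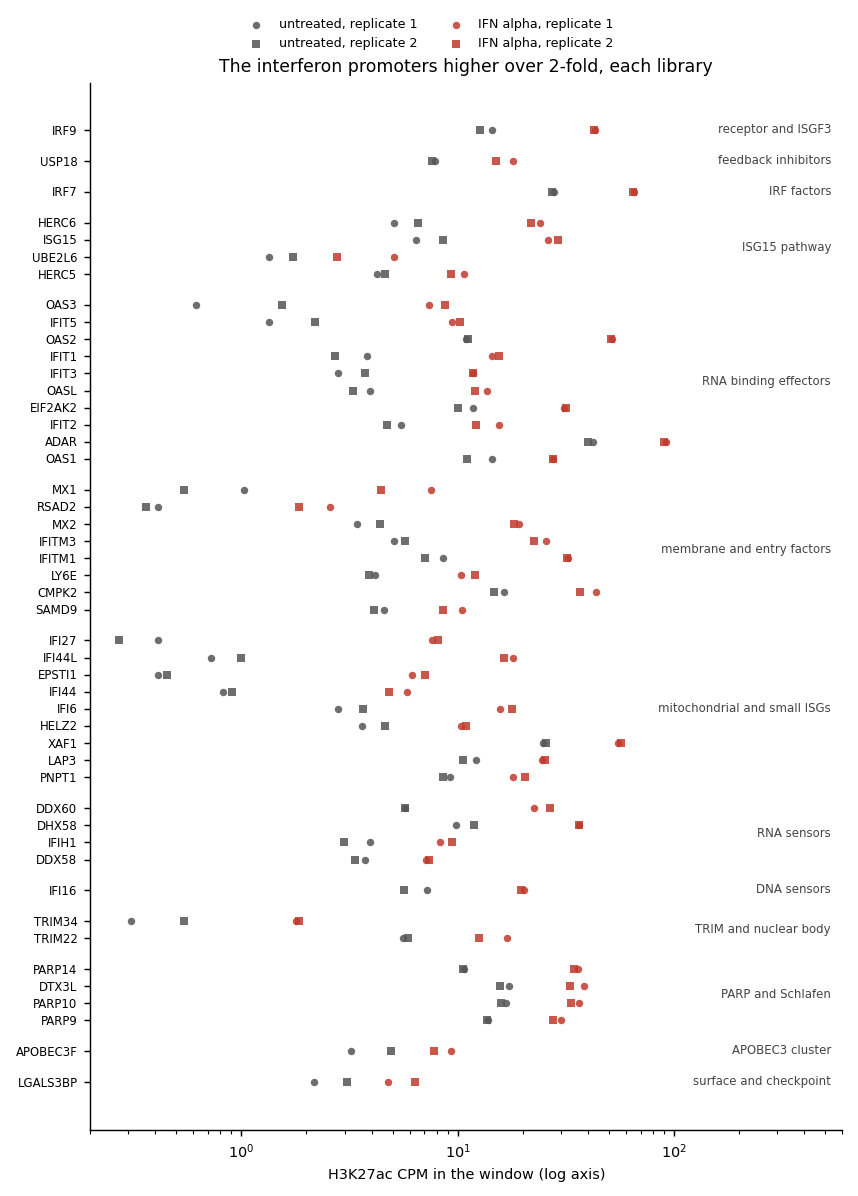
H3K27ac in CPM on a log axis at 47 of the 48 interferon promoters that rose by over 2-fold, grouped by list, with grey points for untreated and red points for IFN treated WT libraries (circles replicate 1, squares replicate 2). In every row both red points lie to the right of both grey ones, and UBE2L6 shows a wide gap between its treated libraries, 5.05 and 2.77 CPM.

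Sensors of RNA rose more often than sensors of DNA, although the lists are short and the difference between them was not tested. Of 9 RNA sensor genes, 5 rose, 4 of them by over 2-fold. DDX60 (chr4:168318277-168319277), a helicase that aids RIG-I, went from 5.68 and 5.72 CPM to 22.6 and 26.6 CPM (2.11 ± 0.16, edgeR adjusted p = 1.6e-18). DHX58, which encodes LGP2, rose by 1.73 ± 0.13 from 9.81 and 11.9 CPM to 36.3 and 36.2 CPM, and IFIH1, which encodes MDA5, by 1.37 ± 0.21 from 3.93 and 2.99 CPM to 8.32 and 9.44 CPM. DDX58, which encodes RIG-I, rose by 1.04 (0.96 and not passing without untreated replicate 2), and MAVS, the adaptor of both receptors, did not pass (-0.08). Of 6 DNA sensor genes, only IFI16 rose. IFI16 (chr1:159009407-159010407) gave 7.23 and 5.63 CPM untreated and 20.2 and 19.7 CPM with IFNα (1.64 ± 0.16, edgeR adjusted p = 6.1e-13). CGAS and STING1 were among the most acetylated promoters of the whole interferon set before treatment and did not pass. CGAS gave 58.7 and 58.3 CPM untreated and 62.5 and 58.4 CPM with IFNα (0.05 ± 0.09, edgeR adjusted p = 0.94), and STING1 gave 90.8 and 88.7 CPM untreated and 83.8 and 92.0 CPM with IFNα (-0.03 ± 0.09, edgeR adjusted p = 0.96).

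Of 12 TRIM and nuclear body genes, 8 rose at the promoter, but only TRIM22 and TRIM34 by over 2-fold there. TRIM22, an antiviral E3 ligase, went from 5.58 and 5.90 CPM to 16.9 and 12.5 CPM (1.36 ± 0.18). TRIM34 stayed low throughout, at 0.310 and 0.545 CPM untreated and 1.78 and 1.85 CPM with IFNα (2.03 ± 0.49, edgeR adjusted p = 0.014), and lost its call when any one of the 4 WT libraries was left out, with log2 fold changes of 1.72 to 2.50. TRIM5, SP110, PML, SP140L, TRIM21 and SP100 rose by 0.46 to 0.96 on the log2 scale, and all of these but SP110 and PML lost the call without at least 1 WT library (0.43 to 0.79). TRIM25, the E3 ligase of RIG-I, gave 58.1 and 61.7 CPM untreated and 73.9 and 68.8 CPM with IFNα and did not pass (0.25 ± 0.09, edgeR adjusted p = 0.24). In the PARP and Schlafen list 6 of 9 rose. PARP14 went from 10.6 CPM in both untreated libraries to 36.1 and 34.5 CPM (1.73 ± 0.13), and DTX3L, PARP10 and PARP9 rose by 1.12, 1.10 and 1.07. PARP12 and SLFN12 rose by less than 2-fold (0.94 and 0.80), with PARP12 not passing without IFN treated replicate 1 (0.74) or untreated replicate 2 (0.55), and SLFN5, SLFN11 and SLFN13 did not pass (0.39, 0.20 and 0.01).

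Other lists had few or no members that passed. Of the 7 APOBEC3 genes, cytidine deaminases that restrict retroviruses, only APOBEC3F passed. It gave 3.20 and 4.90 CPM untreated and 9.32 and 7.79 CPM with IFNα (1.06 ± 0.22, edgeR adjusted p = 0.0014), and was not called without IFN treated replicate 1 (0.93) or untreated replicate 1 (0.80). None of the 5 guanylate-binding protein genes, GTPases better known as targets of interferon gamma, passed at the promoter. GBP3 gave 12.8 and 10.2 CPM untreated and 10.3 and 11.4 CPM with IFNα, GBP1, GBP4 and GBP5 had log2 fold changes of 0.52, 0.33 and 0.20, and GBP2 of -0.18. Of 9 chemokine and cytokine genes, TNFSF13B, which encodes BAFF, alone rose (0.51), and lost the call without any one of the 4 WT libraries (0.48 to 0.53). The promoters of CXCL10 and CXCL11, ligands of one chemokine receptor, had log2 fold changes of 0.63 and 0.10 and did not pass, and CXCL10 had too few tags there for its interval to fall below 2-fold.

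Of 14 MHC class I genes tested, 6 rose at the promoter, none by over 2-fold there, and the list median was 0.45. The 6 were PSMB9 (0.88), TAP1 (0.81), HLA-E (0.80), B2M (0.72), PSMB8 (0.64) and TAP2 (0.53), which belong to the immunoproteasome, the peptide transporter and the class I molecule itself, and TAP2 did not pass without IFN treated replicate 1 (0.47) or 2 (0.58) or untreated replicate 2 (0.38). PSMB8 had 36.5 and 36.6 CPM untreated and 57.3 and 56.9 CPM with IFNα, so that the 2 groups lay far apart relative to their spread (edgeR adjusted p = 7.9e-07). HLA-B and HLA-C had log2 fold changes of 0.41 and 0.44 and did not pass, nor did their activator NLRC5 (0.31) or PSMB10 (0.19). The HLA genes have near-identical copies between which reads can be split, as do the IFITM, APOBEC3 and GBP genes, so their values are uncertain. Of 10 surface and checkpoint genes, LGALS3BP alone rose, from 2.17 and 3.09 CPM to 4.76 and 6.36 CPM (1.06 ± 0.27, edgeR adjusted p = 0.03), and it lost its call without any one of the 4 WT libraries (0.84 to 1.35) and by DESeq2 (adjusted p = 0.24). CD274, CD38 and IDO1 had log2 fold changes of 0.36, -0.06 and -0.57 and did not pass.

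Lists outside the interferon set were read in the same way. None of the 9 MHC class II, 15 inflammatory and 12 housekeeping promoters passed at any fold, with list medians of 0.12, 0.16 and -0.01. The label of the cells was checked in the same way. All 16 monocytic markers had a tested promoter, with a median of 17.3 CPM untreated (1.73 to 79.8), while 6 of 14 markers of other lineages were tested, at a median of 2.37 CPM, the highest being NKG7 at 10.9 CPM. With IFNα the medians were -0.02 and 0.04 and no promoter of either list was called.

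The 80 interferon promoters that were not called at any fold were examined by their confidence intervals. Their median log2 fold change was 0.17 and their median untreated level was 9.15 CPM. For 69 of them the upper end of the 95% confidence interval was below 2-fold, and for 46 it was below 1.5-fold, so a rise of the size seen at ISG15 lies outside their intervals. The remaining 11 cannot be placed on either side of 2-fold at this depth, and 2 of these, ZBP1 and CCL8, had point estimates over 2-fold. All 21 with at least 20 CPM untreated had an upper bound below 2-fold. Both treated libraries lay above both untreated ones at 26 of the 80, with 17.8% of all promoters showing this order. At an unadjusted p under 0.05 by edgeR, 14 of the 80 were higher, as were 5576 of all 123276 tested regions.

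**Figure D3:**
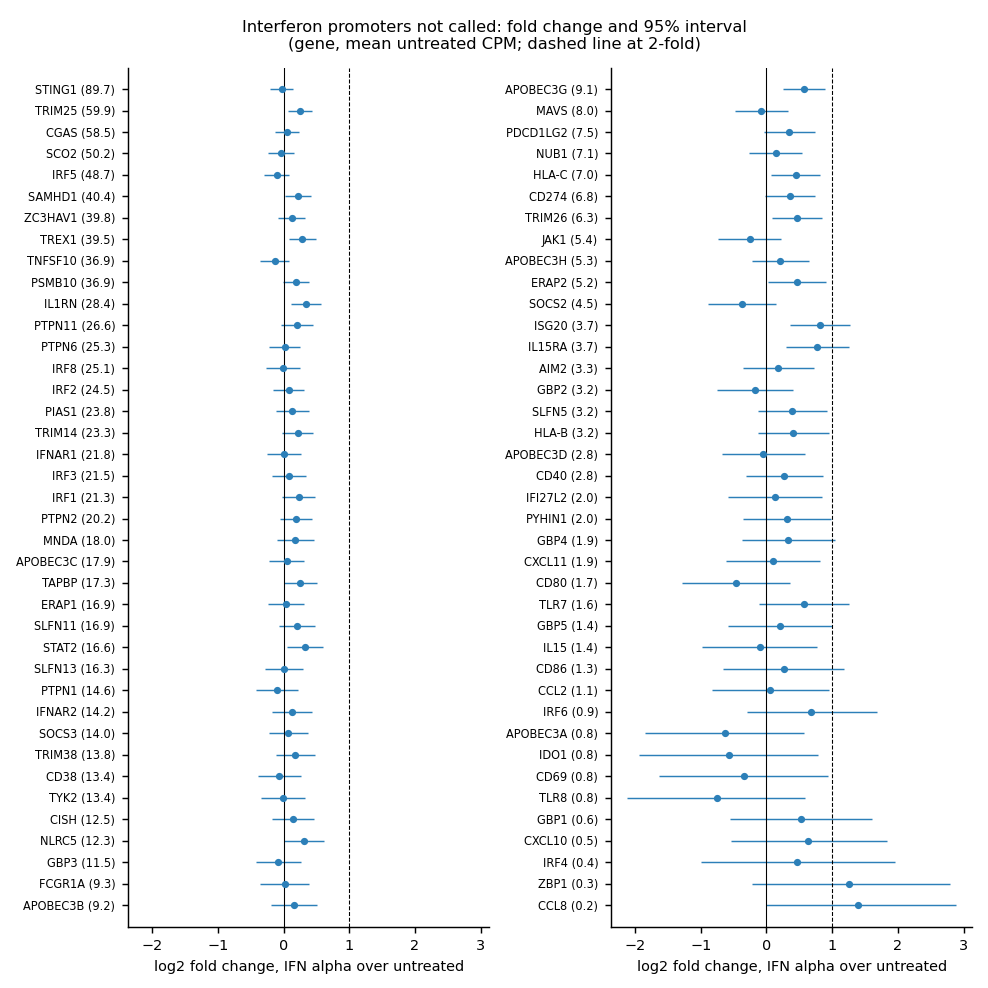
Log2 fold change with IFNα in WT cells at 78 of the 80 interferon promoters that were not called, as points with 95% confidence intervals as bars, ordered by the untreated level in CPM given beside each name, with a dashed line at 2-fold. Intervals are narrow at the top of the order, where all 21 promoters with at least 20 CPM have their whole interval below 2-fold, and wide at the bottom, where ZBP1 and CCL8 lie beyond the line.

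Among the strongest of these, TNFSF10, which encodes the death ligand TRAIL, gave 39.5 and 34.4 CPM untreated and 32.3 and 34.9 CPM with IFNα, with overlapping groups (-0.13 ± 0.11, edgeR adjusted p = 0.79). ZC3HAV1, which encodes the antiviral protein ZAP, gave 40.6 and 39.0 CPM untreated and 43.0 and 43.8 CPM with IFNα (0.13 ± 0.10). IRF5 gave 47.0 and 50.4 CPM untreated and 45.8 and 44.7 CPM with IFNα (-0.11). Before IFNα these promoters carried about as much acetylation as that of ADAR, which rose.

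A rise of over 2-fold was least frequent at promoters with the highest untreated level. Of interferon promoters with under 2 CPM untreated, 10 of 28 rose by over 2-fold, and of those from 2 to 5 CPM 13 of 24. From 5 to 10 CPM, 10 of 27 rose by over 2-fold and 14 by any fold. From 10 to 20 CPM, 12 of 41 rose by over 2-fold and 24 by any fold. Above 20 CPM, 3 of 34 rose by over 2-fold and 13 by any fold. At any fold the highest level was not the least frequent, since 10 of 28 rose under 2 CPM. For other promoters at these levels, from low to high, 3 of 3990, 4 of 2279, 3 of 2501, 1 of 3227 and 0 of 3953 rose by over 2-fold. Across the 154 promoters, with the level from one untreated library and the rise from the other libraries, Pearson's r was -0.27 and -0.24 for the 2 choices of library and Spearman's rho -0.24 and -0.16. These correlations are across genes that share libraries, and are given as a description only.

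At 16 interferon genes whose promoter did not rise by over 2-fold, or was not tested, another region with the gene's name did, at 18 windows from 283 bp to 60013 bp from the TSS. Of all tested regions, 0.344% rose by over 2-fold. An ISRE core lay in the central 200 bp of 9 of the 18 windows, against 45.5% of all raised and 5.604% of all tested regions. For 7 of these 16 genes (SOCS1, SAMD9L, DDX60L, TRIM5, SP110, SLFN12 and PSMB9) the promoter itself rose by less than 2-fold. Their other windows lay 283 bp to 1497 bp from the TSS and rose by 1.01 to 1.39 on the log2 scale. Those of SOCS1, TRIM5, SP110 and PSMB9 lost the call without at least 1 WT library. TLR7, a sensor of single-stranded RNA, had a region 22989 bp upstream that gave 0.310 and 0.454 CPM untreated and 3.37 and 4.10 CPM with IFNα (3.23 ± 0.44). IRF8, whose promoter did not pass, had one 36.1 kb upstream that rose from 0.723 and 1.27 CPM to 3.87 and 4.72 CPM (2.07 ± 0.34). SIGLEC1, a macrophage lectin with no tested region within 3000 bp of its annotated TSS, had 3 overlapping or adjacent windows that rose by 1.32 to 1.97, the strongest 4395 bp upstream, from 4.34 and 3.81 CPM to 14.7 and 17.3 CPM. All 3 lie within 3000 bp of another coding SIGLEC1 start of GENCODE.

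Chemokine and death ligand loci also responded in this way. CXCL10 rose 4926 bp upstream, from 2.38 and 1.72 CPM to 4.76 and 4.51 CPM (1.19 ± 0.28, edgeR adjusted p = 0.009), and lost the call without IFN treated replicate 1 (1.15) or 2 (1.22) or untreated replicate 2 (0.96). TNFSF10 rose 23.5 kb upstream, from 3.41 and 6.35 CPM to 9.91 and 10.1 CPM (1.01 ± 0.20). Its untreated libraries differed from each other by almost as much as the rise, but did not reach the treated ones, and the log2 fold change was 0.65 without untreated replicate 1 and just under 2-fold without IFN treated replicate 2. GBP5 rose 1804 bp upstream (1.37), and APOBEC3A, AIM2 and PIAS1 rose 15.7 kb upstream (2.03), 37.1 kb upstream (1.73) and 60.0 kb downstream of the TSS (1.39). The APOBEC3A region was not called without any one of the 4 WT libraries (1.79 to 2.29).

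The distal region with the largest rise among those with at least 30 tags in each treated library lay 75001 bp inside SPATS2L (chr2:200383451-200384451). It gave 0.723 and 0.545 CPM untreated and 10.6 and 12.7 CPM with IFNα, a log2 fold change of 4.19 ± 0.29 (edgeR adjusted p = 9.4e-21). A region 5745 bp downstream of the annotated LY6E TSS, which has another coding LY6E start of GENCODE within 3000 bp, was strong as well as responsive, at 3.409 and 3.903 CPM untreated and 48.5 and 44.3 CPM with IFNα (3.66 ± 0.15). A region 19.2 kb from NEURL3, a ubiquitin ligase, went from 2.58 and 2.90 CPM to 21.3 and 20.4 CPM (2.92 ± 0.18). The remaining 7 of the 10 leading distal regions carried the names LINC01740, TLR7, MIR4479, MIR622, GNRH2, PARTICL and CD2AP and rose by 2.79 to 3.29. The MIR4479 region also lies within 3000 bp of a coding start of TRAF2. Of these names only TLR7 belongs to an interferon list. At proximal regions the 10 leading names were IFI27, IFI44L, EPSTI1, VRK2, MX1, OAS3, IFI44, UBE2L6, IFIT5 and IFI6. VRK2, a kinase gene outside the lists, rose 1331 bp inside the gene from 0.620 and 0.817 CPM to 6.14 and 5.33 CPM (2.97 ± 0.35).

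Some loci held several raised regions, in part overlapping windows, and at some of these loci other tested regions did not rise. The IFIT cluster on chromosome 10 held 13 raised regions within 119845 bp, and the 3 OAS genes on chromosome 12 held 4 within 72505 bp. At LY6E all 5 tested regions rose, by 1.48 at the annotated TSS and by up to 3.66 in the region near the other start. At UBE2L6 all 4 tested regions rose, of which the one 225 bp upstream was not called without IFN treated replicate 1 (1.12) or untreated replicate 2 (1.34). At AXL, a receptor tyrosine kinase, 4 of 9 rose, by 1.10 to 1.75, and 2 of these, 56 bp and 449 bp upstream of the TSS, lost the call when any single WT library (0.98 to 1.21) or any but untreated replicate 2 (0.84 to 1.29) was left out.

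**Figure D4:**
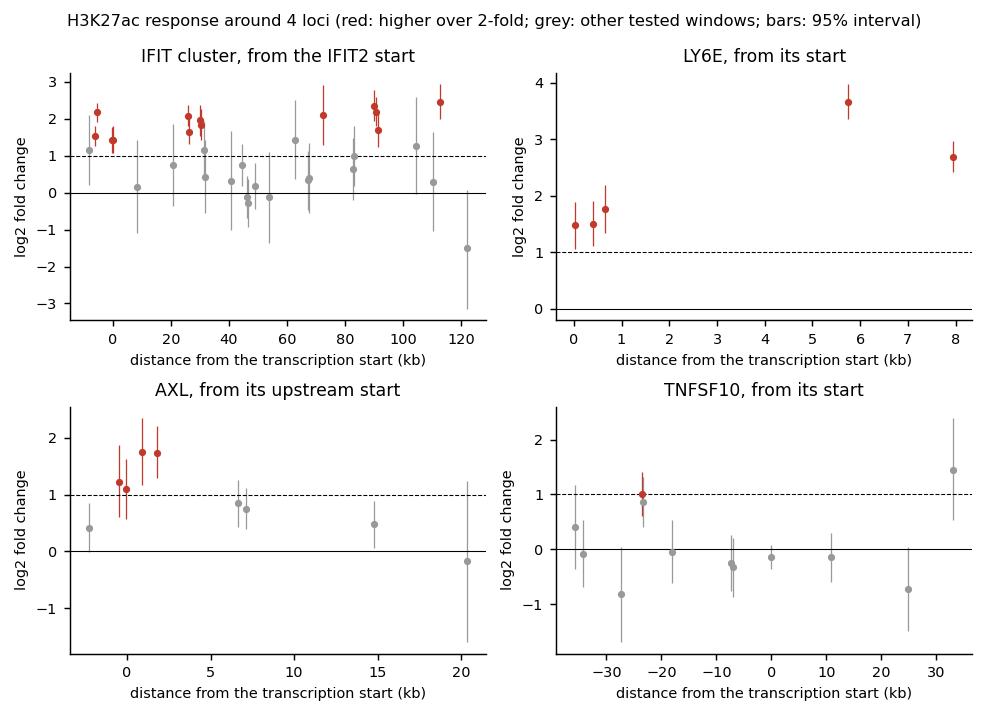
Log2 fold change with IFNα in WT cells at each tested region of 4 loci, against distance from the transcription start in kb (IFIT2 for the IFIT cluster, the upstream start for AXL), with bars for 95% confidence intervals, raised regions in red and other tested regions in grey. Raised regions cover 13 of 32 tested regions across the IFIT cluster and all 5 at LY6E, 4 of 9 at AXL and 1 of 12 at TNFSF10, the last away from the transcription start.

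Regions that fell were few and weak. The 47 had a median log2 fold change of -1.22 and a median untreated level of 4.84 CPM, against 2.28 CPM for all tested regions. In 46 of them both treated libraries lay below both untreated ones. These regions were selected for a fall, so this order is no separate support for it, and its share over all tested regions was not counted. Of the 47, 40 were distal (0.0424% of tested distal regions) and 7 proximal (0.0243%). The leading fall lay 48.8 kb from the TSS of AKAP7, an anchor of protein kinase A, from 3.41 and 3.72 CPM to 1.09 and 0.923 CPM (-1.81 ± 0.38, edgeR adjusted p = 0.0021). The next 5 carried the names IQGAP2, LINC02508, LOC100506474, LRRC6 and MIR583 and fell by 1.60, 1.49, 1.44, 1.43 and 1.42 on the log2 scale. All 6 lost the call when any of at least 2 single WT libraries were left out, and the count of 47 went to 15 without IFN treated replicate 1, 30 without IFN treated replicate 2, 15 without untreated replicate 1 and 23 without untreated replicate 2. DESeq2 called 2 regions lower, and gave no adjusted p for 39 of the 47. Only 4 promoters were lower, 0.0248% of all genes tested, and none belongs to an interferon list.

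The ISRE core was present in the central 200 bp of 45.5% of raised regions, against 5.604% of all tested regions and 0 of the 47 lower ones. Raised proximal regions held it in 60 of 132 cases and raised distal regions in 133 of 292, although the core was rarer in tested proximal regions (2.73%) than in tested distal ones (6.48%). The share was 48.2% for regions that rose by over 4-fold, 44.8% for those between 2-fold and 4-fold and 25.98% for those that rose by less than 2-fold. At interferon promoters it was 58.3% where the rise was over 2-fold, 38.5% where it was smaller and 17.5% where none was called, against 2.46% of all promoters. The GAS core, TTCNNNGAA, was present in the central 200 bp of 10.8% of raised and 5.36% of all tested regions, with 14.4% against 3.61% for proximal and 9.25% against 5.89% for distal regions, and in the full window of 34.2% of raised and 25.6% of all tested regions. Base composition moved with these shares, as median GC was 44.8% in raised and 47.1% in all tested regions, and its part in them was not tested. A match of these letters is not a binding site, and these shares are given without a test.

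**Figure D5:**
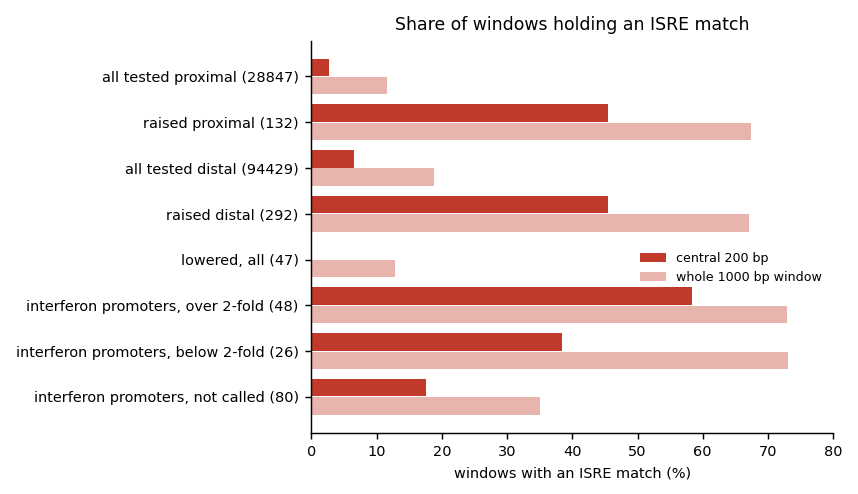
Share of regions with the ISRE core in percent, as bars from 0, in the central 200 bp (dark) and in the whole window of 1000 bp (light), by class of region and, for interferon promoters, by outcome, with the number of regions in brackets. In the central 200 bp, raised proximal and raised distal regions both stand far above the tested regions of their class, at 2.73% and 6.48%, and interferon promoters raised by over 2-fold are highest at 58.3%.

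The WT response was set beside that of USP18KO cells at the same 154 interferon promoters. In USP18KO cells, 110 rose by over 2-fold, set against 3.76% of all promoters there, and the median log2 fold change was 1.83. The difference of the IFNα effects, tested as an interaction in the same fit, was larger in USP18KO cells at 107 promoters, against 7.5% of all promoters and 6.84% of all tested regions. It was smaller at 1, against 3.84% of all promoters and 5.22% of all tested regions. Of the 80 not called at any fold in WT cells, 37 rose by over 2-fold in USP18KO cells. Another 29 did not pass as higher at any fold there, and the rest rose there by less than 2-fold. TNFSF10 went from 21.99 and 20.98 CPM to 87.0 and 75.7 CPM in USP18KO cells, a difference from WT cells of 2.05 on the log2 scale (edgeR adjusted p = 9.6e-19). STING1 did not pass in either genotype. The 1 promoter with the smaller effect in USP18KO cells was the MX1 window at its downstream start, at 1.14 and 0.770 CPM untreated and 1.95 and 1.03 CPM with IFNα there (difference -2.29 ± 0.62, edgeR adjusted p = 0.0049). The separate window at the upstream start of MX1 had the reverse order, with a log2 fold change of 3.10 in USP18KO cells against 1.01 in WT cells. Of the 424 regions raised in WT cells, 402 were also called in USP18KO cells, where 7.14% of all tested regions were.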

How the data were processed

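H3K27ac ChIP-seq libraries of THP-1 cells were analysed, WT or USP18KO and with or without IFNα, with 2 libraries in each of 4 groups. Input libraries were not used here. The values deposited by the authors were expected counts, that is raw HOMER tags in steps of 0.5 without normalization, in windows of 1000 bp at merged ATAC-seq peaks of hg38. Per the methods and processing notes, reads were mapped with Bowtie2, tag directories and annotation were made with HOMER, and groups were compared with DESeq2 by the authors. Windows overlapped another window in 31.8% of cases, so some tags are counted in several regions, and no input was subtracted.

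From these, tags were rounded to whole counts, regions were kept when 2 or more of the 8 libraries held 10 or more counts, and counts were scaled by TMM and fitted with 1 mean per group in edgeR 4.0.16 (R 4.3.3, limma 3.58.1). The contrast of IFN treated with untreated WT cells was tested by quasi-likelihood with Benjamini-Hochberg adjustment over 123276 regions, and confidence intervals came from the same test. All 8 libraries entered the fit so that 4 groups share 1 estimate of the spread, and the common biological coefficient of variation was 0.0737. DESeq2 1.42.0 was run as an alternative. With depths of 9046141 to 10291674.5 tags per WT library, regions with few tags have wide intervals. edgeR drew the spread behind each interval largely from the other regions, with a median prior of 80.8 degrees of freedom. A narrow interval therefore does not measure the agreement of the 2 libraries per group at that region alone.

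The steps were checked on simulated data, with a 3-fold rise in 200 regions. Of these, 161 were called, among them all 74 whose mean count reached 30, and 1 unchanged region was called. The 95% interval held the true value at 92.4% of tested changed regions.

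The genes described, the lists and the motifs were chosen with earlier results of these data known. A naming rule picked the 3 called promoters of each list with the largest change and USP18. It also picked the 12 interferon promoters not called at over 2-fold with the most untreated counts. To these it added the leading 10 proximal and 10 distal raised and 6 lower regions with at least 30 counts in each library of the higher group. The last were the genes with the most raised regions. CPM values were given for some of these, and a fold change alone or a range for others. Genes beyond this rule (STAT2, SOCS1, ADAR, GBP3 and the windows away from promoters) were chosen after their values were seen. Motif cores were searched in the hg38 sequence, and coding starts near regions were taken from GENCODE v44. Alternatives changed the scaling, tool, filter, libraries, thresholds, region set and replicate block, and left out each library in turn. Results for some genes of the lists are not reported here.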

Additional observations from a re-analysis of the deposited data

Results flagged for a closer look

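The IFNα effect differed between USP18KO and WT cells at 38 of the regions picked by the naming rule given above, by edgeR's quasi-likelihood test of the interaction with Benjamini-Hochberg adjustment. Over all tested regions, the effect was larger in USP18KO cells at 6.84% and smaller at 5.22%. Windows picked only because their gene had the most raised regions are not among the 38 and are given last. Regions named outside that rule are not among the 38. Some of them differed by more than any value listed here, such as the CXCL10 region 4926 bp upstream (4.23). Others did not pass, such as the SOCS1 region 1256 bp upstream (0.94). Values are the log2 fold change in USP18KO cells minus that in WT cells, and no cause of these differences was tested. Across the 154 interferon promoters the effect was larger in USP18KO cells at 107 and smaller at 1, against 7.5% and 3.84% of all promoters.

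That 1 was the MX1 window at its downstream start, at -2.29. Of the factors of the pathway, the difference was 1.35 at USP18, 0.54 at IRF7 and 0.96 at IRF5. In the ISG15 pathway it was 1.22 at ISG15, 2.03 at the UBE2L6 TSS and 1.76 at the UBE2L6 window 1379 bp into the gene. Effectors that bind RNA gave 1.70 at OAS2, 1.78 at IFIT5 and 0.82 at ZC3HAV1. Membrane and nucleic acid effectors gave 1.68 at MX2, 2.35 at RSAD2, 0.48 at TREX1 and 0.59 at SAMHD1.

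Small ISGs gave 2.45 at IFI44, 1.99 at IFI44L and 1.42 at IFI6, and NMI gave 0.93. Among sensors the difference was 1.41 at DHX58, 1.45 at IFIH1, 2.16 at IFI16 and 0.55 at CGAS. It was 1.76 at TRIM22, 0.46 at TRIM25, 1.03 at DTX3L, 0.96 at PARP10, 0.95 at PARP14 and 1.10 at APOBEC3F. Antigen presentation and surface genes gave 1.31 at PSMB8, 1.06 at PSMB10, 1.45 at LGALS3BP and 2.05 at TNFSF10.

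Of the leading distal regions, LY6E gave 0.73, LINC01740 1.04, MIR4479 1.73, MIR622 1.25 and PARTICL 2.64. LINC02508, which fell in WT cells, gave 1.82. Among the loci with the most raised regions, the difference passed at all 5 raised windows of LY6E and at all 4 of UBE2L6, IFIT2 and IFIT3. It did not pass at any of the 4 raised windows of AXL.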

How the results depend on the processing

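In place of 424 higher and 47 lower regions, DESeq2 with its own size factors gave 322 and 2, and shared 320 of the higher ones. The 4 WT libraries alone gave 473 and 71 and included all 424. With 1 window kept from each chain of overlapping windows, 340 rose and 46 fell, and 90 of the raised regions were proximal and 250 distal. With no fold threshold the counts were 805 higher and 188 lower, with 253 proximal, 552 distal and 74 interferon promoters higher. Over 3-fold they were 178 higher and 10 lower, with 57 proximal, 121 distal and 24 interferon promoters. Leaving out single libraries gave 304 to 457 higher, 15 to 59 lower, 100 to 137 proximal, 195 to 320 distal and 42 to 48 interferon promoters. The ISRE share of raised regions was 67.2% over the whole window, against 17.1% of all tested regions. Scaling by the sum of counts or by RLE factors changed 0 of the calls at the 154 interferon promoters.

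Replicate numbers are shared by the groups, and deviations of WT libraries with the same number correlated at 0.0112 over all tested regions. With a median untreated level of 2.28 CPM, counting noise could hide a pairing, so this value cannot decide whether the numbers pair the libraries. A fit with the replicate block gave 429 higher and 51 lower regions, 420 of the former shared.

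Of 70 called regions picked by the naming rule, none changed sign under these settings, and 19 lost the call under at least 1 other than the 3-fold threshold. Regions named outside that rule are not in these counts. Several of them also lost the call when a WT library was left out, as stated where they are described. Within the rule, signs turned only at promoters that were not called. With single libraries left out SCO2 ranged from -0.17 to 0.088 (0.0048 without untreated WT replicate 1), CGAS from -0.0027 to 0.097 and TMEM173 (STING1) from -0.098 to 0.036. The cause was not tested. DESeq2 gave no adjusted p for 8 of the regions picked by the rule.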

Other observations

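Beside the interferon lists, 11 promoters rose by over 2-fold in WT cells, chosen here after their values were seen. They are among the 59 of all 16104 promoters (0.366%) that did so. The largest rise was at RARRES3 (PLAAT4), a tumour suppressor gene of the phospholipase family, with 0.413 and 0.726 CPM untreated and 2.38 and 2.36 CPM with IFNα, a log2 fold change of 2.01 ± 0.45. CFB, which encodes complement factor B, rose by 1.61, and MYD88, the adaptor of Toll-like receptors, rose by 1.12 from 3.93 and 4.63 CPM to 8.23 and 10.5 CPM. HIRA, a histone chaperone, rose by 1.18 from 11.3 and 11.7 CPM to 26.3 and 25.8 CPM in a window 994 bp from its TSS. AXL rose by 1.10, SEPT4 by 1.08 and PHF11 by 1.04. The others carried the names LINC01914 (1.55), CLEC4F (1.54), LOC101927272 (1.51) and LOC100419583 (1.20), the last of which lies within 3000 bp of the TSS of TRIM69. Of the 11, 7 lost the call when at least 1 WT library was left out, with 1.69 to 2.02 at RARRES3, 1.14 to 1.74 at CFB and 0.94 at MYD88 without IFN treated replicate 2, while CLEC4F, LOC101927272, LOC100419583 and HIRA kept it under all 4 omissions. Of the 11 windows, 7 held the ISRE core in the central 200 bp, against 45.5% of raised proximal regions and 2.46% of all promoters.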
